A study of Mus musculus with 24 samples.

Results

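The nuclear-encoded subunits of the 5 oxidative phosphorylation complexes were read in CGR8 cells, a mouse embryonic stem cell (ESC) line. Members were taken by gene symbol: Nduf subunits of complex I, Sdha to Sdhd of complex II, Uqcr genes and Cyc1 of complex III, Cox4 to Cox8 genes of complex IV and Atp5 genes of complex V. The rule found 89 of the 54242 symbols in the table, of which 40 belong to complex I, 4 to complex II, 9 to complex III, 19 to complex IV and 17 to complex V. It selects by name and used no measured value. Ndufa4 is counted with complex I by its symbol although its protein is now placed in complex IV.

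Oxidative phosphorylation moves electrons from NADH, through complex I, and from succinate, through complex II, to coenzyme Q, complex III, cytochrome c and complex IV, where oxygen is reduced. Complexes I, III and IV pump protons across the inner mitochondrial membrane, and complex V, the ATP synthase, uses the gradient to make ATP. The mitochondrial genome encodes a few core subunits and the nucleus the rest, several of them as paralog pairs whose use depends on tissue. Pluripotent cells rely strongly on glycolysis, and respiratory capacity is remodelled as they differentiate.

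The 24 libraries were in 8 groups of 3. CGR8 cells received control siRNA (si-CTL) or siRNA against Rsl24d1 (si-Rsl24d1), which encodes a factor of pre-60S ribosome assembly, and were collected as ESCs in serum and LIF (day 0) or after 4 days of 10 nM retinoic acid (RA; day 4). Each combination was made without rescue and with rescue, the latter being doxycycline-induced expression of an siRNA-resistant Rsl24d1 transgene, whose RNA may add to the Rsl24d1 level read here. The labels give the no-rescue cells an empty vector, whereas the study describes 1 engineered CGR8 rescue line without and with doxycycline. Levels are transcript abundances scaled by length and library total (TPM), so depth is unknown. The labels do not say whether replicates were separate cultures, so p-values measure the spread between these libraries, which may be technical.

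Rsl24d1 itself was read first. At day 0 without rescue its level on the log2(TPM + 1) scale was 7.22, 7.14 and 7.10 with si-CTL and 5.23, 5.28 and 5.07 with si-Rsl24d1 (log2 difference -1.95, limma adjusted p = 3.24e-14), and with rescue the difference was -0.50 (adjusted p = 2.19e-05). At day 4 without rescue the libraries labelled si-Rsl24d1 held 6.50, 6.61 and 6.65 against 6.60, 6.67 and 6.61 with si-CTL, so the groups overlapped (difference -0.04, adjusted p = 0.66). With rescue at day 4 the libraries labelled si-Rsl24d1 were 0.15 higher (adjusted p = 0.193). The target was thus lower in both day 0 comparisons and in neither day 4 comparison, and a day 4 siRNA difference compares libraries by their label.

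Pluripotency and RA markers were compared between the days. The mean level of pluripotency markers was 8.48 at day 0 and 8.02 at day 4 with si-CTL and no rescue. With si-Rsl24d1 and no rescue it was 8.06 and 8.10. Their summed TPM was higher at day 4 in each condition, 0.566% and then 0.712% of all TPM with si-CTL and no rescue. From day 0 to day 4 with si-CTL and no rescue, 6 of 8 pluripotency markers fell and 2 rose, and 5 of 7 tested RA-response markers rose. Markers of fibroblasts (mean level from 1.95 to 3.14), muscle (1.41 to 2.41) and germ line (2.95 to 4.46) were also higher at day 4. In bulk RNA, more cells of a type and more RNA per cell cannot be told apart.

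Of the 89 members, 84 had a mean level of at least 0.5 and were tested. The other 5 were Ndufa11b, at 0 in 24 libraries, Ndufs6b, at 0 in 22, Cox8b, the cardiac and muscle isoform, at 0 in 21, Cox6c2, at 0 in 11, and Cox6a2, also a muscle isoform, at 0 in 9. Ndufa11b, Ndufs6b, Cox6c2 and the tested Ndufb4c are annotated as processed pseudogenes. Ndufb4c held 88.9% ± 0.59 (SD, n = 3) of the summed Ndufb4 and Ndufb4c TPM at day 0 with si-CTL and no rescue, so how reads were split between this intronless copy and its parent is uncertain.

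Promoters of some members named below are given here, with RefSeq coordinates on GRCm38.p6. Cox6b2 and Cox6b1 encode alternative versions of the same complex IV subunit, Sdha the catalytic flavoprotein of complex II, and Atp5k a membrane subunit of complex V. The stretches lie before the RefSeq start, with at most 30 bases inside the longer gencode gene, and are read from the minus strand at chr7:4753095-4753344, chr7:30626122-30626364, chr13:74350251-74350490 and chr5:108434419-108434649. Capitals mark matches to the NRF1 motif, bound by nuclear respiratory factor 1, or CCGGAAG, a core bound by ETS factors such as GABP, on either strand. A further NRF1 match in the Sdha window lies past the end of the stretch shown.
Cox6b2: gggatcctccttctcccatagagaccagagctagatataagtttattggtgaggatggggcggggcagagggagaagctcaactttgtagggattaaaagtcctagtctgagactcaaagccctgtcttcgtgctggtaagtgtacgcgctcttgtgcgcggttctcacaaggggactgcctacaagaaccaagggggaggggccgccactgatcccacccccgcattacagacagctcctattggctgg
Cox6b1: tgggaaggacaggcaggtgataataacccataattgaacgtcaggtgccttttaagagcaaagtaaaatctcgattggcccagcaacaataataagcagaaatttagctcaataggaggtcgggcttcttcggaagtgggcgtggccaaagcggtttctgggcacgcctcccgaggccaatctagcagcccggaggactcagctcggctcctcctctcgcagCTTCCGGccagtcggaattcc
Sdha: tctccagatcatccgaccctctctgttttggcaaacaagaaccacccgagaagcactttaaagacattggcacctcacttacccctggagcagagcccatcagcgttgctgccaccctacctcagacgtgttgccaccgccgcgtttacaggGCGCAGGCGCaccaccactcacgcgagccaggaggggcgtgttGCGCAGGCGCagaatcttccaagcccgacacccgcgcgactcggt
Atp5k: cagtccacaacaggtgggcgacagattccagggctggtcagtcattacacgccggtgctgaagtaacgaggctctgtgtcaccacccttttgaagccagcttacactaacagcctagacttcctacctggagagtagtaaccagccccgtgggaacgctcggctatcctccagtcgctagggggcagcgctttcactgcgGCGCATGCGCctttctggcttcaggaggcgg

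RefSeq promoter windows of 300 bases, 250 before and 50 after the start, were matched for 69 members. The NRF1 motif was present in 16 of these 69 windows (23.2%) and in 10.0% of the 11432 windows of all tested genes. CCGGAAG was also found in 16 (23.2%, against 17.6%). AANATGGC, bound by YY1, was in 15 (21.7%, against 8.5%), of which 11 belonged to complex I, and its last letters can overlap a translation start. GGGCGG, the GC box, was in 29 (42.0%, against 63.7%) and TGACGTCA, bound by CREB, in 4 (5.8%, against 3.1%). Both strands were searched, and a GC box can lie inside other GC-rich matches. The Cox6b2 window held 10 CpG, with a GC content of 55.7%, and the Cox6b1 window 17 CpG at 53.0%. Tested genes had a median of 20 CpG. The Cox6b2 window held none of the NRF1, ETS or YY1 letters. These are descriptions of letters, and binding was not measured.

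Together the members made up 2.09% to 2.66% of all TPM in the 24 libraries, and the 13 mitochondrially encoded subunits made up 6.38% to 9.32%. Median TPM over all libraries was highest for Atp5b (1372), the catalytic beta subunit of complex V, and for Cox4i1 (1054), the ubiquitous subunit 4 of complex IV. In complex I tested members ran from Ndufb4 (26.7) to Ndufa7 (506), in complex II from Sdhc (106) to Sdhd (153) and in complex III from Uqcrfs1 (147), the Rieske iron-sulphur protein, to Uqcr10 (531). Complex IV had the widest range, down to the testis-type Cox8c at 0.775 TPM. In complex V the lowest was Atp5g2 (65.3), which encodes the same mature c-ring protein as Atp5g1 and Atp5g3.

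**Figure D1:**
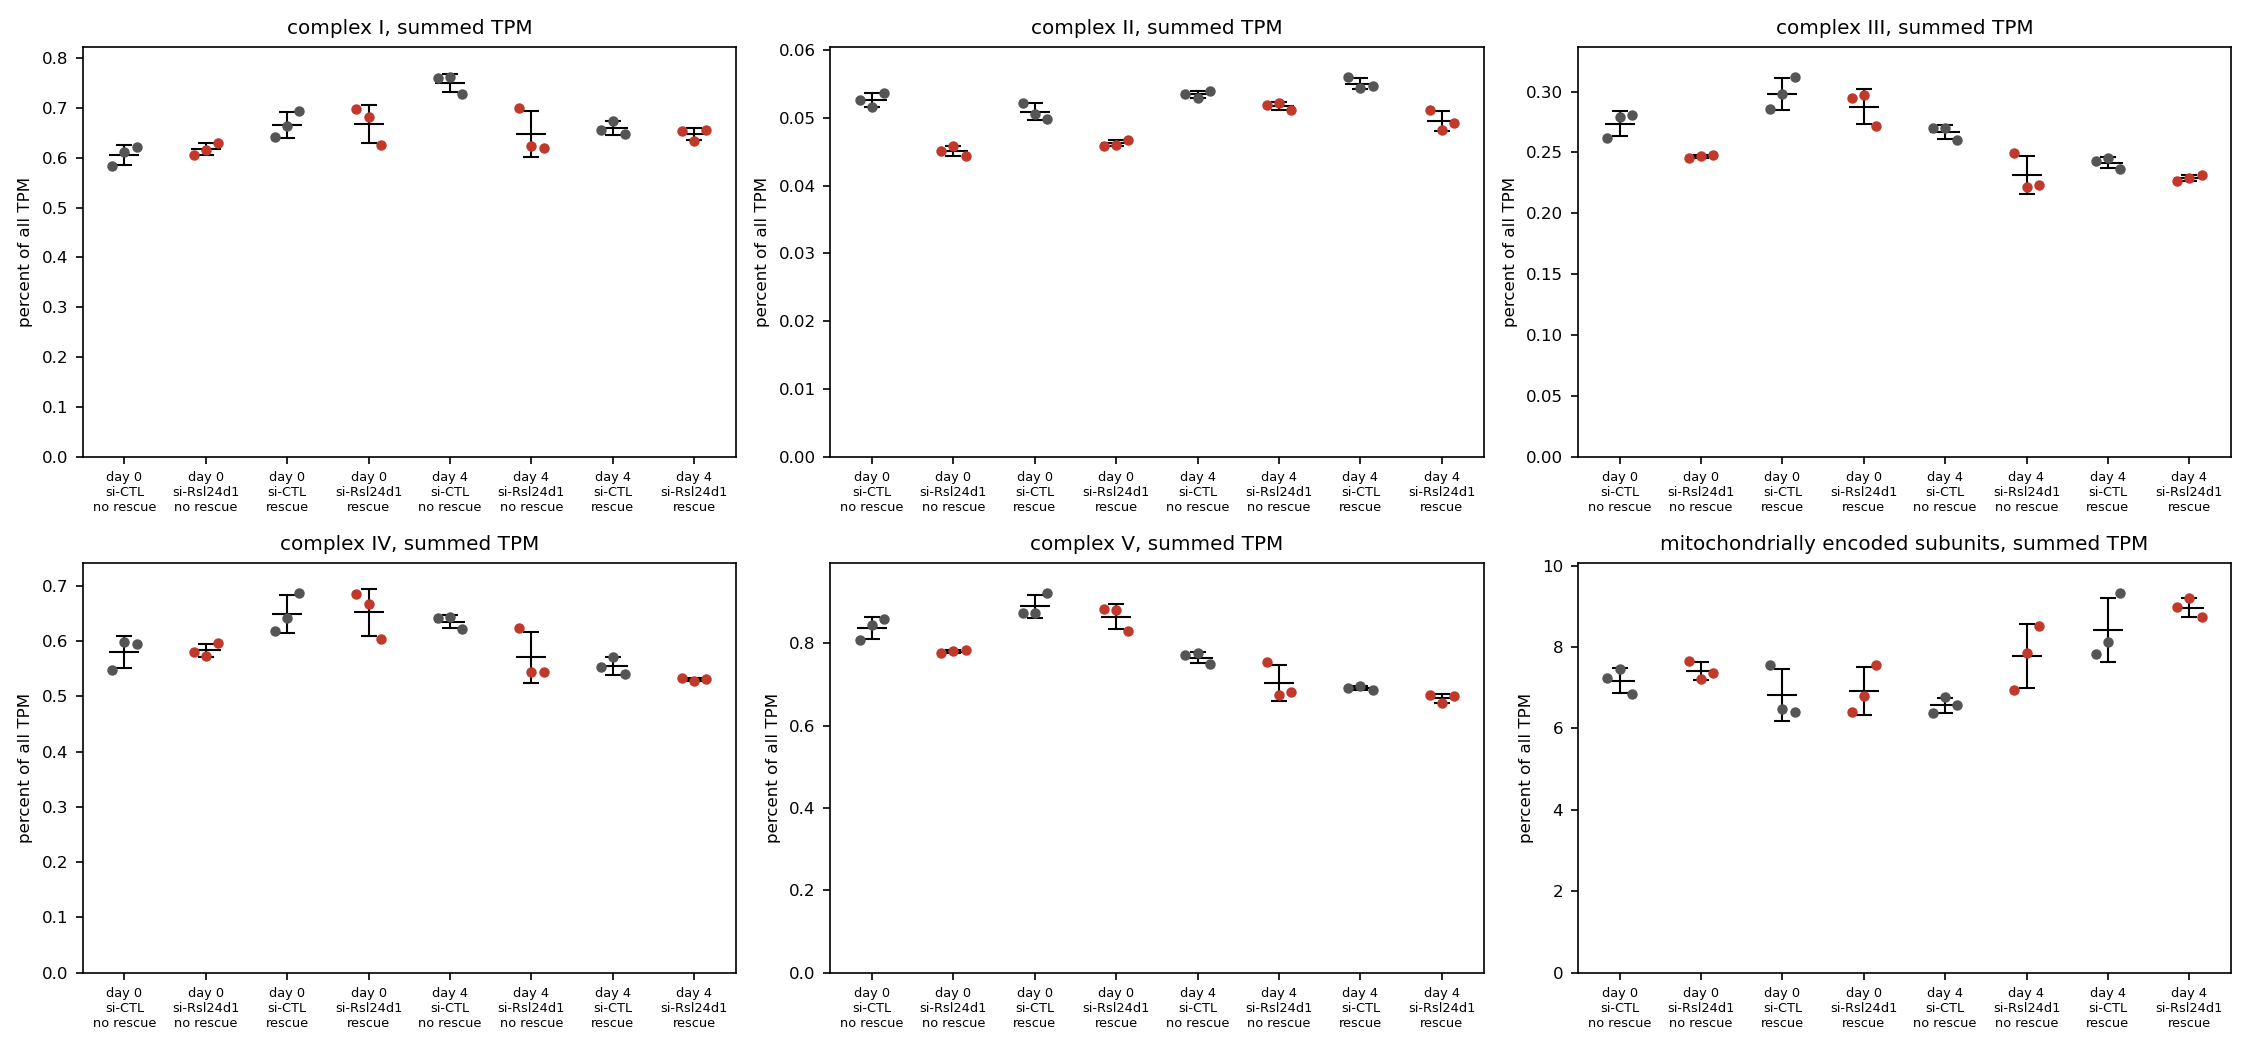
Summed TPM of each complex and of the mitochondrially encoded subunits as a percentage of all TPM (y axis, from 0) in the 8 groups (x axis). Points are libraries (grey si-CTL, red si-Rsl24d1), with bars for the mean and SD. Complex I was highest at day 4 with si-CTL and no rescue (0.728 to 0.761), and complex V was lower at day 4 than at day 0 in each matched pair of groups.

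The plot of summed TPM shows complexes that did not move together. With si-CTL and no rescue, complex I was 0.605% ± 0.0202 (SD, n = 3) of all TPM at day 0 and 0.75% ± 0.0188 at day 4, whereas complex V was 0.837% ± 0.0261 and 0.765% ± 0.0142. Complex II was 0.0527% ± 0.00103 with si-CTL and 0.0451% ± 0.00072 with si-Rsl24d1 at day 0 without rescue, and the 3 libraries of each group did not overlap. In each 3 against 3 comparison the smallest exact permutation p is 0.1.

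Some libraries stood apart within their group. At day 4 without rescue, replicate 1 labelled si-Rsl24d1 held 2.38% of TPM in members against 2.12% in replicates 2 and 3, with mitochondrially encoded shares of 6.95%, 7.84% and 8.51%. At day 0 with rescue, si-Rsl24d1 replicate 3 held 2.38% against 2.60% and 2.57%, with mitochondrially encoded shares of 7.56%, 6.40% and 6.80%. Replicate 1 of day 0 si-CTL without rescue held 2.25% against 2.38% and 2.41%.

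To ask whether Rsl24d1 depletion changed the respiratory chain in ESCs, si-Rsl24d1 was compared with si-CTL at day 0. Without rescue 19 members fell and 4 rose of 84 (27.4%), beside 30.4% of the 16447 tested genes that passed limma's adjusted p below 0.01 (16.1% lower and 14.3% higher), so the total share was near the background. The median difference was -0.08 on the log2 scale, and over all genes -0.01. The falls were small, between -0.15 and -0.45, and Cox6b2, higher by 1.10, was the only member past the study's added threshold of a 1.8-fold change, beside 4.18% of all genes.

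In complex II 3 of 4 fell: Sdha by 0.27, the membrane anchor Sdhd by 0.24 and the iron-sulphur subunit Sdhb by 0.23, and Sdhc did not pass. Sdha levels were 7.25, 7.15 and 7.13 with si-CTL and 6.94, 6.94 and 6.83 with si-Rsl24d1, without overlap. In complex III 5 of 9 fell: Uqcrq by 0.35, Uqcrfs1 by 0.19, the cytochrome c1 gene Cyc1 by 0.19, and the core proteins Uqcrc1 and Uqcrc2 by 0.17 and 0.16. In complex V Atp5g1 fell by 0.37, the rotor shaft gene Atp5c1 by 0.30, Atp5g3 by 0.25 and Atp5d by 0.15. Complex IV had 2 falls, the muscle-type Cox7a1 by 0.45 and Cox7a2l, a factor of supercomplex assembly, by 0.18.

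Complex I split by subunit class. Its core subunits are those with bacterial counterparts, of which 6 nuclear-encoded ones are described, and this split was chosen after the values were seen. Of these core subunits, 4 of 6 fell (Ndufs7 by 0.25, Ndufv1 by 0.21, Ndufs1 by 0.18 and Ndufs3 by 0.17), and Ndufs8 and Ndufv2 did not pass. Of the 31 accessory subunits, Ndufa4 and the pseudogene Ndufb4c counted among them, 3 rose (Ndufs4 by 0.35, Ndufb6 by 0.34 and Ndufa11 by 0.21) and none fell. The median transcript length was 819.5 bases for these 6 and 572 for the accessory subunits.

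Neighbouring mitochondrial functions were counted at day 0 without rescue as well, beside 16.1% of all genes lower and 14.3% higher. Of 18 tested tricarboxylic acid cycle genes 12 fell and none rose, with Idh2 by 0.58, Pdha1 by 0.40 and Dlat by 0.36 the largest. Of 9 genes for ATP export and membrane channels 5 fell and 1 rose, the falls led by the porins Vdac1 (0.42), Vdac3 (0.35) and Vdac2 (0.30). Of 28 import and inner membrane genes 11 fell and 2 rose. Of 51 assembly factors 8 fell, led by Ndufaf1 (0.49), and 7 rose, led by Cox20 (0.46), both counts near the shares of all genes. Cell type markers moved too: 6 of 8 pluripotency markers fell, led by Esrrb (1.09) and Zfp42 (0.96), and their part in these results was not tested. Limma called 0 of the 13 mitochondrially encoded subunits, with a median of 0.08. Of 18 transcriptional regulators 6 fell, Esrrb, shared with the pluripotency list, by 1.09, Ppargc1b by 0.60 and Myc by 0.54, and Mterf3 and Gabpb1 rose by 0.35 and 0.22.

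With rescue at day 0, 5 of 84 members passed (5.95%, beside 13.7% of all genes, 8.1% higher and 5.64% lower). Cox6b2 rose by 0.73 and Ndufa11 by 0.19, whereas Atp5c1 fell by 0.21, Cox7a2l by 0.16 and Sdhb by 0.15. All 5 were also called without rescue, in the same direction and in other libraries. The difference between both siRNA effects was tested as an interaction, and limma called 0 of 84 members (beside 2.09% of all genes, 0.906% higher and 1.18% lower), with 11 at an unadjusted p under 0.05. For Cox6b2 the effect was 0.37 smaller with rescue (adjusted p = 0.0121, SE 0.0827).

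**Figure D2:**
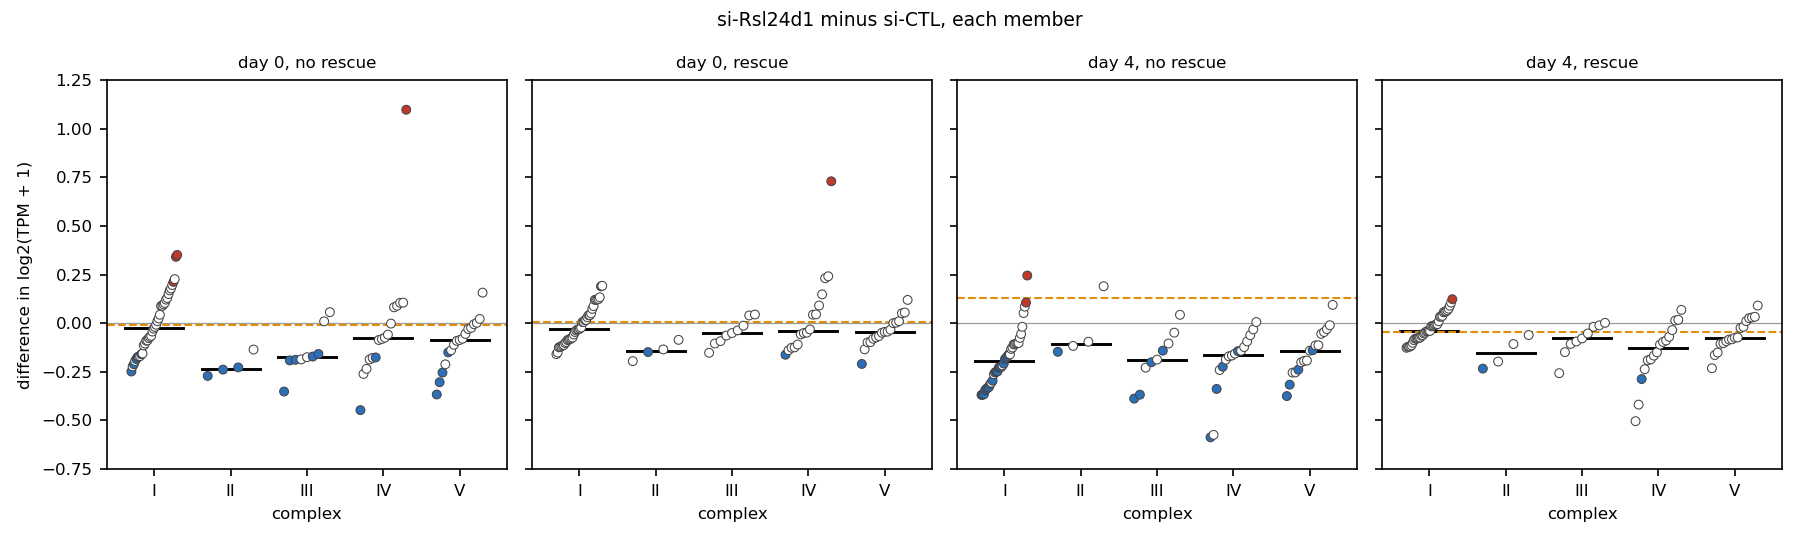
Difference in log2(TPM + 1), si-Rsl24d1 minus si-CTL (y axis), for each tested member by complex (x axis) in the 4 conditions. Red points were called higher, blue lower and white not called (limma adjusted p below 0.01), black lines are medians by complex and the dashed line is the median of all tested genes. The point near 1.10 at day 0 without rescue is Cox6b2, and it lies at -0.59 at day 4.

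At day 4 most members called in the libraries labelled si-Rsl24d1 were lower than with si-CTL. Without rescue 33 members were lower and 2 higher of 84 (41.7%, beside 30.9% of all genes, 6.04% lower and 24.9% higher). The member median was -0.17 and that of all genes 0.13. In complex I 20 of 38 were lower and all but Ndufs7 of these were accessory subunits, led by Ndufb7 (-0.37), Ndufc1 (-0.37) and Ndufa5 (-0.37). The core Ndufs1 was 0.24 higher and the accessory Ndufa9 0.11 higher. Elsewhere Cox6b2 (-0.59), Uqcrq (-0.39), Atp5e (-0.37), Uqcr11 (-0.37), Cox5a (-0.34) and Atp5g1 (-0.32) were lower.

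Other classes moved in these same libraries, and their part in the result was not tested. Of the mitochondrially encoded subunits 5 of 13 were higher, led by mt-Nd5 (0.60). Cytosolic ribosomal protein genes had a median of -0.18, with 32 of 83 lower and none higher. Protein-coding genes with a median transcript of 2000 bases or more had a median of 0.23 and those under 1000 bases 0.07, and 73 of 81 members with a length were under 1000 bases. Fibroblast markers were higher for 5 of 7 and RA-response markers for 7 of 7.

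The day 4 count changed with single libraries. It was 52, of which 50 lower, without replicate 1 labelled si-Rsl24d1, 16 without replicate 2, 19 without replicate 3 and 20 without si-CTL replicate 1, and fitting only both groups compared left 4. A median of ratios scaling of the TPM, which centres all genes near 0, gave 53 lower and 0 higher. With rescue at day 4 only 3 of 84 members passed (3.57%, beside 5.87% of all genes, 3.53% lower and 2.33% higher): Cox6b2 fell by 0.29, Sdhd fell by 0.23 and Ndufa9 rose by 0.12. None of these 3 calls remained under median of ratios scaling, where 1 other member was called.

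The siRNA effects at day 0 and day 4 were then tested against each other. Without rescue 23 of 84 members differed (27.4%, beside 30.9% of all genes, 8.83% lower and 22.1% higher), 17 with a lower value at day 4 and 6 with a higher one. The 17 comprised 14 accessory subunits of complex I, led by Ndufb6 (-0.59), Ndufb7 (-0.55), Ndufab1 (-0.51) and Ndufa12 (-0.50), with Cox6b2 (-1.68), Atp5e (-0.38) and Cox8a (-0.31). The 6 included the core subunits Ndufs1 (0.43) and Ndufv1 (0.26), with Sdha (0.46), Uqcrc1 (0.21) and Atp5b (0.18). Under median of ratios scaling the split was 17 lower and 2 higher. In the same test 12 of 18 tricarboxylic acid cycle genes had a higher value at day 4 and none a lower one, and 43 of 83 ribosomal protein genes had a lower one. With rescue, 4 members differed (4.76%, beside 9.95% of all genes, 6.83% lower and 3.13% higher): Cox6b2 (-1.02), Cox8a (-0.33), Atp5a1 (-0.28) and Ndufa9 (0.16). The count without rescue was 35, of which 29 lower, without day 4 replicate 1 labelled si-Rsl24d1.

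**Figure D3:**
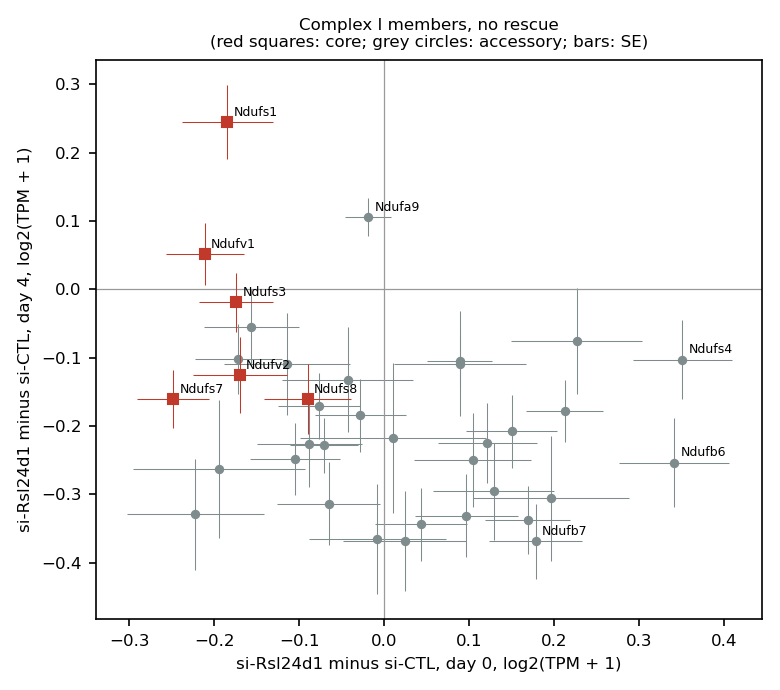
Complex I members without rescue: difference of si-Rsl24d1 and si-CTL in log2(TPM + 1) at day 0 (x axis) and at day 4 (y axis), which use different libraries. Red squares are core subunits, grey circles accessory subunits and bars SE. The 6 core subunits drawn lie left of 0, and Ndufs1 is also the highest at day 4 (0.24).

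Cox6b2 had the largest called difference of any member in the 4 siRNA comparisons and in both RA comparisons with si-CTL. It encodes the testis-enriched version of a small subunit at the dimer interface of complex IV, and Cox6b1 the version used in most tissues. Cox6b2 lies at chr7:4751792-4753094 and Cox6b1 at chr7:30616861-30626151 (GRCm38, minus strand). At day 0 without rescue Cox6b2 levels were 5.80, 5.79 and 5.89 with si-CTL and 6.93, 6.89 and 6.95 with si-Rsl24d1. At day 0 with rescue they were 5.90, 6.06 and 5.92 and then 6.75, 6.73 and 6.59. The groups did not overlap in either pair (adjusted p = 1.12e-11 and 1.61e-08, limma).

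At day 4 the siRNA difference in Cox6b2 had the opposite direction. Levels without rescue were 7.67, 7.57 and 7.66 with si-CTL and 7.15, 7.01 and 6.98 in libraries labelled si-Rsl24d1. With rescue they were 7.33, 7.52 and 7.33 against 7.08, 7.08 and 7.14. The order of group means in TPM was 55.8 ± 2.27 (SD, n = 3) at day 0 with si-CTL, 61.3 ± 3.8 for the same with rescue, 102 ± 6.08 with si-Rsl24d1 and rescue, 120.5 ± 2.79 for si-Rsl24d1 without rescue, then 132 ± 8.6, 136 ± 3.19, 167 ± 12.9 and 198 ± 7.28 at day 4. The neighbours 55.8 and 61.3 (adjusted p = 0.0942) and 132 and 136 (adjusted p = 0.621) did not differ beyond their spread.

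The RA difference in Cox6b2 followed the same levels. With si-CTL it rose by 1.81 without rescue (adjusted p = 1.69e-15) and by 1.43 with rescue (adjusted p = 5.23e-14). With si-Rsl24d1 the difference was 0.12 without rescue (adjusted p = 0.0695) and a rise of 0.41 with rescue (adjusted p = 3.65e-06). These comparisons share their libraries with the siRNA comparisons above. Cox6b2 kept its direction and its call in both day 0 siRNA comparisons and in both RA comparisons with si-CTL under all alternatives run.

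The siRNA differences of Cox6b1 were between -0.09 and -0.05, none of which passed, and RA changes were -0.12 and -0.14 without rescue, not passed, and falls of 0.54 and 0.56 with rescue. The Cox6b2 share of both transcripts in TPM was thus 13.9% ± 0.637 (SD, n = 3) at day 0 with si-CTL and 26.8% ± 0.584 with si-Rsl24d1. With rescue these shares were 13.4% ± 1.11 and 21.0% ± 0.291. At day 4 it was 38.3% ± 1.51 and 30.5% ± 0.968 without rescue and 37.8% ± 0.824 and 34.3% ± 0.101 with rescue. The libraries of paired groups did not overlap at either day.

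**Figure D4:**
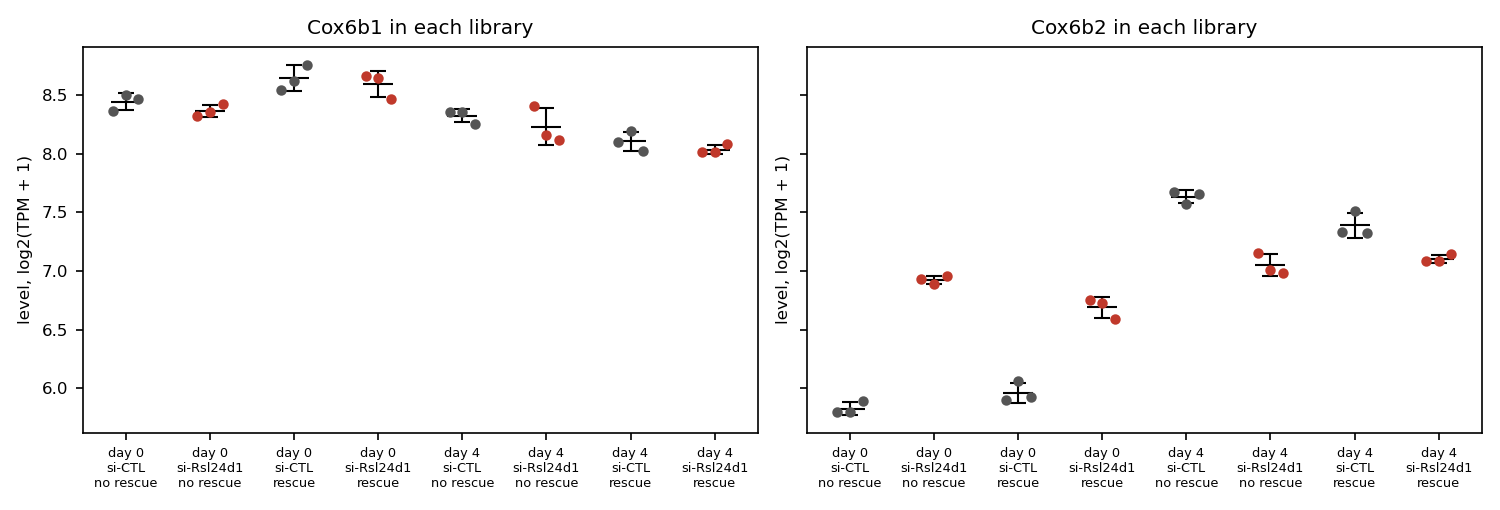
Cox6b1 (left) and Cox6b2 (right) in each library, as log2(TPM + 1) (y axis), in the 8 groups (x axis). Points are libraries (grey si-CTL, red si-Rsl24d1) and bars the mean and SD. Cox6b2 with si-CTL rose from 5.79 to 5.89 at day 0 to 7.57 to 7.67 at day 4 without rescue, and si-Rsl24d1 libraries lay above si-CTL at day 0 and below it at day 4.

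The 5 germ line markers gave values to set beside this testis-type gene, and their part was not tested. Their mean level was 2.92 to 2.96 with si-CTL and 2.81 to 2.85 with si-Rsl24d1 at day 0 without rescue, where Dazl rose by 0.35 and Stra8 fell by 0.87. At day 4 it was 4.36 to 4.52 and 4.01 to 4.02, and 4 of 5 were lower in libraries labelled si-Rsl24d1. Of the other testis-type members, Cox7b2 rose by 0.66 with RA in si-CTL without rescue and passed in no other siRNA or RA comparison, and Cox8c passed in none.

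Testis-type genes outside the complexes were in the fixed lists of carriers. Cyct, the testis cytochrome c, rose with RA by 2.25 and 2.18 without rescue (si-CTL and si-Rsl24d1) and by 1.83 and 2.26 with rescue. It fell by 0.42 with si-Rsl24d1 at day 0 without rescue, where Cox6b2 rose. Slc25a31, the germ-cell ADP/ATP carrier, rose with RA by 1.15 with si-CTL and by 0.39 with si-Rsl24d1 without rescue, and by 1.14 and 1.01 with rescue. Its day 0 siRNA difference of 0.15 did not pass, and at day 4 it was lower in libraries labelled si-Rsl24d1 without rescue (-0.61).

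Most other paralog sets in complex IV were dominated by a single member. Cox4i1 held at least 99.7% of Cox4i TPM in every group mean, and Cox6a1, Cox7b and Cox8a were likewise dominant, with Cox7b at 98.5% to 99.4%. Cox7a1 was 5.13% ± 0.356 (SD, n = 3) of the Cox7a set at day 0 with si-CTL and no rescue and 8.27% ± 0.682 at day 4. Atp5g1 was 43.5% ± 0.204 of the c-ring set at day 0 and 38.6% ± 0.802 at day 4 in these groups, and Atp5g3 52.1% ± 1.14 and 56.7% ± 0.536.

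The effect of 4 days of RA without LIF was compared in the 4 siRNA and rescue conditions, which share no library with each other. With si-CTL and no rescue 34 members rose and 13 fell (56.0%, beside 60.9% of all genes, 24.1% higher and 36.7% lower). With si-Rsl24d1 and no rescue 19 rose and 19 fell (45.2%, beside 55.8%, 29.4% higher and 26.4% lower). With rescue 16 rose and 36 fell for si-CTL (61.9%, beside 59.2%, 36.8% higher and 22.4% lower). For si-Rsl24d1 with rescue 13 rose and 40 fell (63.1%, beside 58.1%, 32.4% higher and 25.8% lower). The member medians were 0.11, -0.00346, -0.13 and -0.17 and those of all genes -0.10, 0.02, 0.12 and 0.06. Median of ratios scaling moved the split with rescue to 5 higher and 49 lower for si-CTL and to 7 and 42 for si-Rsl24d1.

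Of 84 tested members, 17 were called in the same direction in all 4 conditions. Each condition called 55.8% to 60.9% of all genes. The share of all genes called the same way in all 4 is not given here, so this count is not read as particular to the members. The 7 that fell were Atp5l, Atp5d, Atp5g1, Atp5k and Atp5g3 of complex V and Uqcrc1 and Cyc1 of complex III. The 10 that rose were Ndufa6, Ndufa7, Ndufb5, Ndufb11 and the pseudogene Ndufb4c of complex I, Sdhb, Uqcrc2, Cox7a1, Cox7a2l and Atp5c1. Under median of ratios scaling 5 of the falls (Atp5l, Atp5d, Atp5g1, Uqcrc1 and Cyc1) and 3 of the rises (Ndufa6, Sdhb and Uqcrc2) were called in all 4. Of 84 members 5 were called both ways among the 4 conditions and 8 in none.

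**Figure D5:**
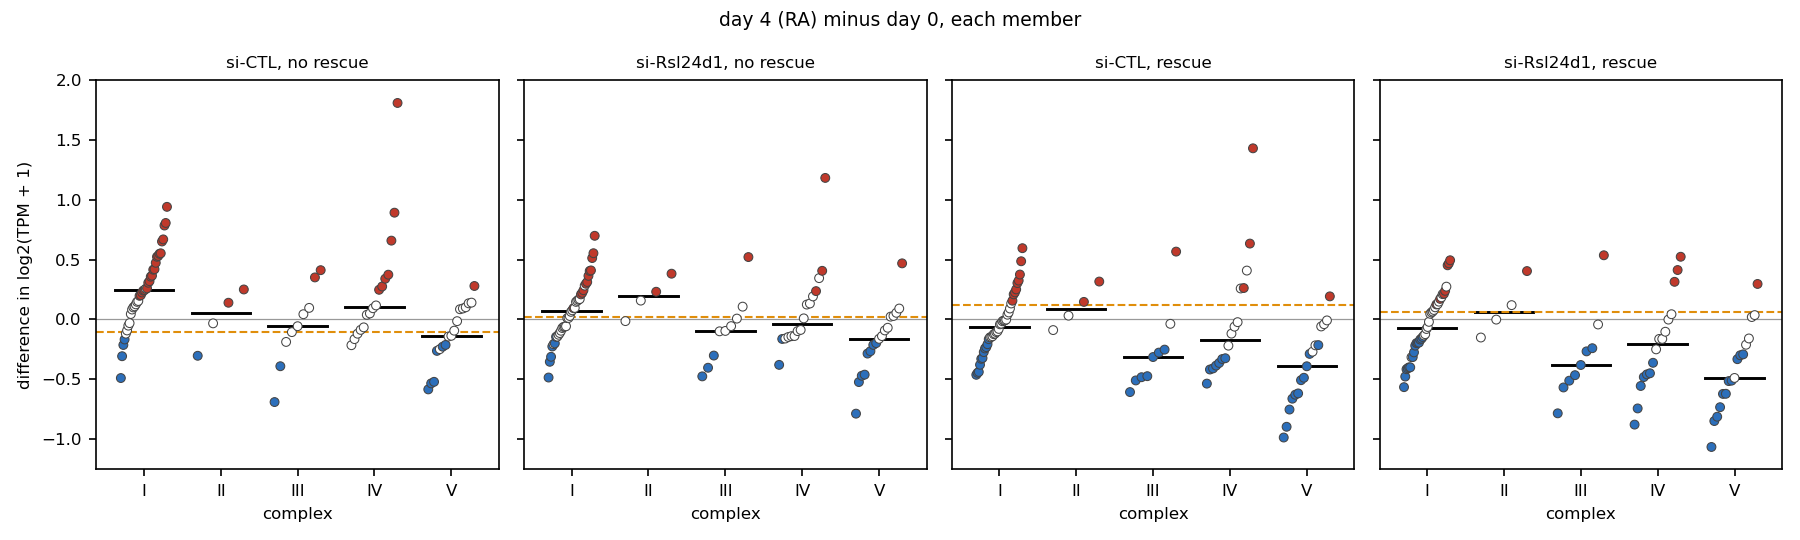
Difference in log2(TPM + 1), day 4 minus day 0 (y axis), for each tested member by complex (x axis) in the 4 conditions. Red points were called higher, blue lower and white not called (limma adjusted p below 0.01), black lines are medians by complex and the dashed line is the median of all tested genes. Complex V has its median below 0 in the 4 panels (-0.14, -0.16, -0.39 and -0.49), and complex I has its highest median, 0.24, with si-CTL and no rescue.

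Complex V had the lowest median of the 5 complexes in all 4 conditions. With si-CTL 6 of 17 fell without rescue and 11 with rescue, and with si-Rsl24d1 8 and 11, while only Atp5c1 rose in each. Of all genes 36.7% and 22.4% were lower with si-CTL, and 26.4% and 25.8% with si-Rsl24d1. The count of 6 was thus near the share of all genes. Atp5l, a subunit at the membrane interface of ATP synthase dimers, had levels of 8.98, 9.09 and 9.18 at day 0 and 8.51, 8.53 and 8.46 at day 4 with si-CTL and no rescue. Its falls were 0.58, 0.79, 0.99 and 1.07, the last 2 past 1.8-fold. Atp5d, of the central stalk, fell by 0.53, 0.52, 0.75 and 0.85. Atp5g1 fell by 0.52, 0.47, 0.90 and 0.73 and Atp5k by 0.26, 0.46, 0.66 and 0.81. Atp5c1, which turns inside the same catalytic head, rose by 0.28, 0.47, 0.19 and 0.30. Without rescue and under median of ratios scaling, 4 of 17 fell and 2 rose with si-CTL, with a median of -0.00293.

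In complex III the pair of core proteins moved in opposite directions. Uqcrc1 levels were 7.94, 7.96 and 7.90 at day 0 and 7.26, 7.24 and 7.23 at day 4 with si-CTL and no rescue, a fall of 0.69, and the falls in the other conditions were 0.48, 0.61 and 0.57. Uqcrc2 levels were 7.23, 7.30 and 7.26 and then 7.70, 7.66 and 7.66, a rise of 0.41, with rises of 0.52, 0.57 and 0.54 in the others. The TPM of Uqcrc1 was above that of Uqcrc2 at day 0 (243 ± 5.04 and 153 ± 3.83, SD, n = 3) and below it at day 4 (150 ± 1.75 and 203 ± 3.73). Cyc1 fell by 0.39, 0.40, 0.51 and 0.51. Uqcrh, the hinge protein, passed in 3 of the conditions, with falls of 0.30, 0.48 and 0.78.

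Complex I rose mainly with si-CTL and no rescue, where 22 of 38 rose and 4 fell, beside 24.1% and 36.7% of all genes. Ndufa6 levels were 7.47, 7.62 and 7.58 at day 0 and 8.54, 8.54 and 8.42 at day 4, a rise of 0.94 past 1.8-fold. Ndufa12 rose by 0.78, Ndufc2 by 0.67 and Ndufb5 by 0.65. The falls included Ndufs1 by 0.49 and Ndufv1 by 0.17, both core subunits, and the accessory Ndufb10 by 0.21. Of the 6 core subunits described 2 rose and 2 fell, and of the accessory subunits 20 of 31 rose. Complex I had 12 rises and 6 falls with si-Rsl24d1 and no rescue, 9 and 11 with si-CTL and rescue, and 7 and 15 with si-Rsl24d1 and rescue. In the si-CTL rescue condition median of ratios scaling gave 1 rise and 17 falls.

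In complex II Sdhb rose by 0.25, 0.38, 0.32 and 0.40 over the 4 conditions and Sdhc passed in none. Sdhd rose by 0.14, 0.23 and 0.15 in the first 3, and its difference with si-Rsl24d1 and rescue, -0.00, did not pass. Sdha fell by 0.30 with si-CTL and no rescue, and its differences in the others, 0.16, 0.03 and 0.12, did not pass.

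In complex IV 7 of 16 rose and none fell with si-CTL and no rescue, beside 24.1% and 36.7% of all genes. In each rescue condition 3 rose and 7 fell, beside 36.8% and 22.4% of all genes with si-CTL and 32.4% and 25.8% with si-Rsl24d1. Cox7a1 rose by 0.89, 1.18, 0.63 and 0.52. Its levels were 4.93, 4.84 and 4.82 at day 0 and 5.82, 5.63 and 5.82 at day 4 with si-CTL and no rescue. Of 7 tested muscle markers 4 rose there, Actc1 by 3.88 and Acta1 by 3.85 the most, and their part in the Cox7a1 rise was not tested. Cox4i2, the hypoxia-associated subunit 4, fell by 0.88 with si-Rsl24d1 and rescue, from 2.00, 2.20 and 2.13 to 1.12, 1.18 and 1.39.

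Of 18 transcriptional regulators of mitochondrial genes 13 fell and 2 rose with RA in si-CTL cells without rescue, beside 36.7% and 24.1% of all genes. The largest falls were Myc by 2.86, Pprc1 by 1.00 and Gabpb2 by 0.90. With si-CTL and rescue 8 fell and 4 rose, beside 22.4% and 36.8% of all genes. With si-Rsl24d1 7 fell and 3 rose without rescue, beside 26.4% and 29.4%, and 6 fell and 2 rose with it, beside 25.8% and 32.4%. Of 51 assembly factors 17 rose, Ndufaf3 by 1.00 the most, and 16 fell, Ecsit by 1.18 the most. Of 28 import and inner membrane genes 15 fell and 5 rose. The ribosomal protein genes had a median of 0.33 with si-CTL and no rescue and of -0.0029 with si-CTL and rescue, beside complex I medians of 0.24 and -0.06, and their part in the result was not tested.

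Rescue and no rescue libraries of si-CTL cells were compared as a control for the rescue. Rsl24d1 itself was 0.10 higher with rescue at day 0 (limma adjusted p = 0.286) and 0.27 higher at day 4 (adjusted p = 0.0108). Neither difference was called. At day 0 limma called 0 of 84 members (beside 0.0122% of all genes), with 52 at an unadjusted p under 0.05, 46 of them higher. The member median was 0.14 and that of all genes -0.12. At day 4, 18 of 84 were lower and none higher (21.4%, beside 10.2% of all genes, 1.34% lower and 8.85% higher), led by Atp5e (-0.34), Cox5a (-0.31) and Ndufs6 (-0.29), with 11 of complex I. This day 4 count was 2 without either replicate 1, 4 without si-CTL no rescue replicate 2 and 3 without rescue replicate 3. In the same comparison protein-coding genes with transcripts of 2000 bases or more had a median of 0.18, the mitochondrially encoded subunits 0.38 and the ribosomal protein genes -0.20.

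In si-Rsl24d1 cells at day 0, 12 members were higher and 1 lower with rescue (15.5%, beside 15.3% of all genes, 3.06% higher and 12.2% lower). The rises included Uqcr11 (0.40), Uqcrq (0.39), Atp5g1 (0.36) and Uqcr10 (0.30), and the fall was Cox6b2 (0.23). In si-CTL cells at day 0 these genes were also higher with rescue, by 0.19, 0.19, 0.13, 0.22 and 0.13 in the same order, none of them called. The siRNA by rescue interaction at day 0, which compares these rescue effects, called no member. Leaving out rescue replicate 3 gave 26 calls and leaving out rescue replicate 1 or 2 gave 5. At day 4, 4 members were lower with rescue (4.76%, beside 5.17% of all genes, 4.23% lower and 0.936% higher), Uqcrh (-0.30), Cox4i1 (-0.22), Atp5d (-0.20) and Uqcrc1 (-0.12), and none was called under median of ratios scaling.

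The RA effect with and without rescue was compared in si-CTL cells, a test added after the data were seen. It called 47 members lower with rescue and 3 higher (59.5%, beside 29.6% of all genes, 2.47% lower and 27.1% higher). The member median was -0.32 and that of all genes 0.21. The 2 called members with the largest lower differences are named by complex, so these do not rank all members. They were Ndufc1 (-0.56) and Ndufa4 (-0.53) in complex I and Uqcr10 (-0.42) and Uqcrb (-0.39) in complex III. In complex IV they were Cox6c (-0.42) and Cox6b1 (-0.42), and in complex V Atp5e (-0.58) and Atp5l (-0.40). Of the 31 accessory subunits of complex I, 23 were lower and none higher. The members with a higher value were Ndufs1 (0.34), Sdha (0.34) and Atp5a1 (0.20). Of the ribosomal protein genes 60 of 83 were lower, the mitochondrially encoded subunits had a median of 0.53 and protein-coding genes with transcripts of 2000 bases or more 0.37. The count was 26 without day 0 si-CTL no rescue replicate 1, 28 without day 0 rescue replicate 3, and 33 without day 4 no rescue replicate 2 or day 4 rescue replicate 3.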

How the data were processed

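RNA-seq was made from 24 libraries of CGR8 cells, with groups taken from the sample titles. The authors deposited a single table of log2(TPM + 1) per gene symbol, with TPM summing to 1000000 in every library, so read depth is unknown and no counting interval is given. The study's methods describe a total RNA kit, Salmon, tximport and GRCm38. The labels name a poly-A kit, and the submitters' processing notes name STAR 2.7.8a, Salmon 1.4.0 and GRCh38. They also give 48 h and 72 h after transfection. These conflicts were not settled. TPM was recovered here as 2 to the deposited value minus the pseudocount of 1.

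Genes with a mean of at least 0.5 over 24 libraries (16447 of 54242) were tested with limma 3.58.1 in R 4.3.3: 8 group means, moderated variances with an intensity trend and Benjamini-Hochberg adjustment over all tested genes. Fold changes are on the log2(TPM + 1) scale, which understates changes of low genes. A call needs adjusted p below 0.01, and the study's threshold adds a fold above 1.8. The model was tested on simulated data. Rises and falls were counted apart. Named members are the complex II genes, paralog sets, extremes of level, the 2 largest calls per direction and complex, all past the fold and all called in the planned interactions, plus up to 3 genes per direction of other lists. The values of 1 named item are not reported here. Members and lists were chosen with earlier results of these data known. Coordinates of genes are from gencode vM21, and promoter sequences are from RefSeq (GRCm38.p6). Alternatives were other pseudocounts (0.1, 2), filters (none, 1.5), median of ratios scaling, TPM without mitochondrially encoded transcripts, only the groups compared, a replicate block, each library left out, and adjusted p below 0.05. Same-numbered libraries did not deviate together (mean r of residuals -0.0173 over 84 pairs), so numbers were not taken to pair samples. Several members overlap other genes on the opposite strand (Atp5j and Gabpa), and whether quantification used strand is not given in the sources used here.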

Additional observations from a re-analysis of the deposited data

Results flagged for a closer look

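These differences were picked out because a test of the difference between effects, an interaction in limma, passed the adjusted p below 0.01. No explanation was weighed. Without rescue, the difference between the siRNA effects at day 4 and at day 0 was called for 23 members, 6 of them higher and 17 lower. Those lower were Cox6b2 (-1.68), Ndufb6 (-0.59), Ndufb7 (-0.55), Ndufab1 (-0.51), Ndufa12 (-0.50), Ndufs4 (-0.45), Ndufa2 (-0.43), Ndufc2 (-0.42), Ndufc1 (-0.39), Ndufa11 (-0.39), Ndufa6 (-0.39), Atp5e (-0.38), Ndufa13 (-0.36), Ndufa4 (-0.35), Ndufb2 (-0.35), Cox8a (-0.31) and Ndufb11 (-0.19). Those higher included Sdha (0.46), Ndufs1 (0.43), Ndufv1 (0.26), Uqcrc1 (0.21) and Atp5b (0.18). The day 4 libraries labelled si-Rsl24d1 held Rsl24d1 at the control level.

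Of the 13 members called for the siRNA in both days without rescue, 9 were lower in both. Day 0 called 30.4% of all genes and day 4 30.9%. The share of all genes called in both days is not given here, so these counts are not read as particular to the members. Cox6b2, Ndufa11 and Ndufb6 were higher at day 0 and lower at day 4, and Ndufs1 was lower and then higher.

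With rescue the same test, added after the data were seen, called 1 member higher, Ndufa9 (0.16), and 3 lower, Cox6b2 (-1.02), Cox8a (-0.33) and Atp5a1 (-0.28).

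The RA effect differed by rescue with si-CTL, also an added test, for 3 members in the higher and 47 in the lower direction. The named ones were Atp5e (-0.58), Ndufc1 (-0.56), Ndufa4 (-0.53), Cox6b1 (-0.42), Cox6c (-0.42), Uqcr10 (-0.42), Atp5l (-0.40), Uqcrb (-0.39), Ndufs1 (0.34), Sdha (0.34) and Atp5a1 (0.20).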

How the results depend on the processing

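Counts of called members stayed within 1.5 times for 203 combinations of comparison and alternative and moved further for 61, those of both added tests being chosen after the data were seen. An adjusted p below 0.05 gave 29 in place of 0 (rescue with si-CTL, day 0), 41 in place of 18 (rescue with si-CTL, day 4), 37 in place of 13 (rescue with si-Rsl24d1, day 0), 9 in place of 4 (the same, day 4), 1 in place of 0 (siRNA by rescue), 11 in place of 5 (siRNA, day 0, rescue), 55 in place of 35 (siRNA, day 4, no rescue) and 8 in place of 3 (the same, rescue). Median of ratios scaling gave 25 in place of 38 (RA, si-Rsl24d1, no rescue). The same scaling gave 0 (rescue with si-Rsl24d1, day 4), 53 and 1 (siRNA, day 4, without and with rescue), and 31 and 25 among the other rescue comparisons. It turned Atp5a1 in the RA by rescue test to -0.082, Ndufa9 at day 4 without rescue to -0.062 and Sdhd with RA in si-CTL and rescue to -0.0057, and the cause was not tested. It moved the median of all genes from 0.13 to -0.00 at day 4 without rescue and from -0.10 to 0.00 for RA with si-CTL and no rescue. Fitting only the groups compared, with fewer libraries behind the spread, gave 24 (RA, si-Rsl24d1, no rescue), 4 and 0 (rescue with si-Rsl24d1, days 0 and 4), 1 (siRNA, day 0, rescue), 4 and 0 (siRNA, day 4, without and with rescue). No filter gave 11 and 8 (rescue, si-CTL day 4 and si-Rsl24d1 day 0), 0.1 added to TPM gave 2 (rescue, si-Rsl24d1, day 4), and leaving out mitochondrially encoded transcripts gave 2 there and 1 for siRNA by rescue.

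With the replicate number as a block, rescue counts were 11 (si-CTL, day 4), 8 and 2 (si-Rsl24d1, days 0 and 4), and siRNA by day with rescue was 2. Same-numbered libraries correlated over 0.1 in 4 of 84 pairs, and differently numbered ones in 17 of 168. The numbers were therefore not taken to pair the samples, although this does not exclude that they do.

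Leaving out each library gave 18 to 24 and 3 to 6 calls (siRNA, day 0, without and with rescue), 16 to 52 and 0 to 3 (day 4), 40 to 43 and 29 to 41 (RA, no rescue, si-CTL and si-Rsl24d1), 45 to 51 and 47 to 59 (RA, rescue), 0 to 0 and 2 to 17 (rescue, si-CTL, days 0 and 4), 5 to 26 and 0 to 4 (rescue, si-Rsl24d1), 16 to 35 and 2 to 4 (siRNA by day, without and with rescue), 0 to 0 (siRNA by rescue) and 26 to 50 (RA by rescue). Beside the libraries named in the report, siRNA by day without rescue was 35 without day 4 si-Rsl24d1 replicate 1, siRNA at day 0 with rescue was 3 without si-Rsl24d1 replicate 1, and at day 4 with rescue 1 without si-CTL replicate 2 and 0 without si-Rsl24d1 replicate 2. The rescue count in si-Rsl24d1 at day 0 was 6, 7 and 8 without no-rescue replicates 1, 2 and 3, and at day 4 the count was 2 without no-rescue replicate 3, 1 without rescue replicate 1 or 2 and 0 without replicate 3. SiRNA by day with rescue was 2 without replicate 1 or 2 of day 0 si-CTL, day 0 si-Rsl24d1 or day 4 si-CTL, or replicate 3 of day 4 si-Rsl24d1.

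Limits are the TPM scale, on which a rise elsewhere lowers every other gene, 3 libraries a group, unknown depth, unknown independence of replicates, and bulk RNA, which holds no protein or respiration measurement. The day 4 siRNA differences rest on labels, since Rsl24d1 was not lower there.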
